A study of Mus musculus with 6 samples.

Results

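Tuft cell genes were examined in the colon epithelium of mice with and without Zfp90 in the intestinal epithelium. The set holds 32 genes that were listed by name for tuft cell taste signalling, lipid mediator synthesis, regulation and surface or structural identity, out of 52550 genes in the files. All 32 symbols were found. The rule for the list uses gene names and no expression value, although it was drawn up when earlier results of these data were known. In the colon epithelium the set was faint: only 5 of the 32 genes averaged at least 1 FPKM (fragments normalised for transcript length and for sequencing depth, so that levels can be compared between genes), and those 5 are also used by other cells.

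Tuft cells are rare chemosensory cells of the gut lining. They detect luminal signals through taste-type receptors, a G protein, a phospholipase and the cation channel Trpm5, and they depend on the transcription factor Pou2f3. Their known outputs are the cytokine IL-25, which acts on type 2 lymphoid cells, together with leukotrienes, prostaglandins and acetylcholine. Several of their enzymes and adaptors are better known from leukocytes, so a bulk tissue value for these genes does not belong to tuft cells alone.

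The comparison was between 3 Zfp90fl/fl mice, whose floxed alleles are intact, and 3 Zfp90ΔIEC mice, their littermates, in which Cre driven by the Villin promoter deletes exon 4 in epithelial cells of the intestine only. All 6 were male C57BL/6 mice, with an age of 6 to 8 weeks in the labels. They had received azoxymethane (AOM, a carcinogen, 10 mg/kg) and, from 5 days later, 3 cycles of dextran sulfate sodium (DSS, which injures the colon, 2% in the water for 7 days, then 14 days of plain water). Cells were taken on day 80. The methods of the study give another DSS concentration and only the upper end of that age range, as the age at AOM injection. On that account the mice were older when cells were taken. Cells were released from the colon with EDTA and DTT, no sort is described, and the mice were kept apart by genotype after weaning, so that housing and genotype cannot be told apart. Every mouse analysed here was treated, so each p-value concerns genotype under AOM-DSS.

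The deleted gene, Zfp90, had 0.630, 0.490 and 0.569 FPKM in the Zfp90fl/fl mice, in the order of replicates 1, 2 and 3 that is kept throughout. It had 0.0846, 0.195 and 0.166 FPKM in the Zfp90ΔIEC mice, below every Zfp90fl/fl value. The Zfp90ΔIEC mean was 26.4% of the Zfp90fl/fl mean, yet limma without a filter on low values gave an adjusted p of 0.123. A gene at such a level that misses an adjusted p under 0.05 is therefore not shown to be unchanged. The title of Zfp90ΔIEC replicates 2 and 3 gives the knockout, but the genotype field of these 2 samples names another Zfp gene. A depth of 26.0 to 29.0 M fragments per sample was estimated from low values, of which 55.9% to 60.3% lay within 0.1 of a whole fragment, so numbers of fragments are approximate. The epithelial markers Epcam, Cdh1, Krt8, Vil1, Cdx2 and Cldn7 summed to between 3891 and 4447 FPKM in every mouse, with overlap between genotypes. Pan-leukocyte markers summed to 9.84 to 11.8 FPKM in the Zfp90fl/fl mice and to 4.44 to 6.5 FPKM in the Zfp90ΔIEC mice, and 7 of the 8 markers did not overlap and were lower in the latter. In bulk samples, fewer cells of a type and less RNA per cell cannot be told apart.

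The defining tuft cell genes were close to the detection floor. Il25, the cytokine gene by which tuft cells start a type 2 response, was listed at 0 in all 6 mice, while housekeeping genes such as Actb and Gapdh were never at 0. Dclk1, a microtubule-associated kinase widely used to stain tuft cells, was at 0.0607, 0.0648 and 0.0903 FPKM in the Zfp90fl/fl mice and at 0.0310, 0.0307 and 0.0573 FPKM in the Zfp90ΔIEC mice. Pou2f3, the lineage regulator, was at 0.0502, 0.104 and 0.0574 FPKM against 0.0237, 0 and 0.0464 FPKM. For neither gene did the genotypes overlap, but if every fragment came from the longest coding transcript these values correspond to 6.8 to 20.6 fragments of Dclk1 and at most 7.6 fragments of Pou2f3 in a sample. Trpm5, the channel of the taste cascade, was higher at 0.354, 0.343 and 0.337 FPKM against 0.293, 0.197 and 0.363 FPKM, and here Zfp90ΔIEC replicate 3 lay above all Zfp90fl/fl mice. The adjusted p was 0.514 for Dclk1, 0.511 for Pou2f3 and 0.751 for Trpm5 (limma without a filter on low values).

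Across the set, levels spanned from Cd24a at about 100 FPKM to genes of a few fragments. Cd24a, Nrep, Ptpn6, Kctd12 and Vav1 averaged above 1 FPKM over the 6 mice. Another 27 genes lay below, 11 of them under 0.1 FPKM, and 8 were listed at 0 in at least 1 mouse. Of the genes that are largely confined to tuft cells within gut epithelium, Avil and Sh2d6 were the most abundant, and even these stayed under 1 FPKM in every mouse.

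**Figure D1:**
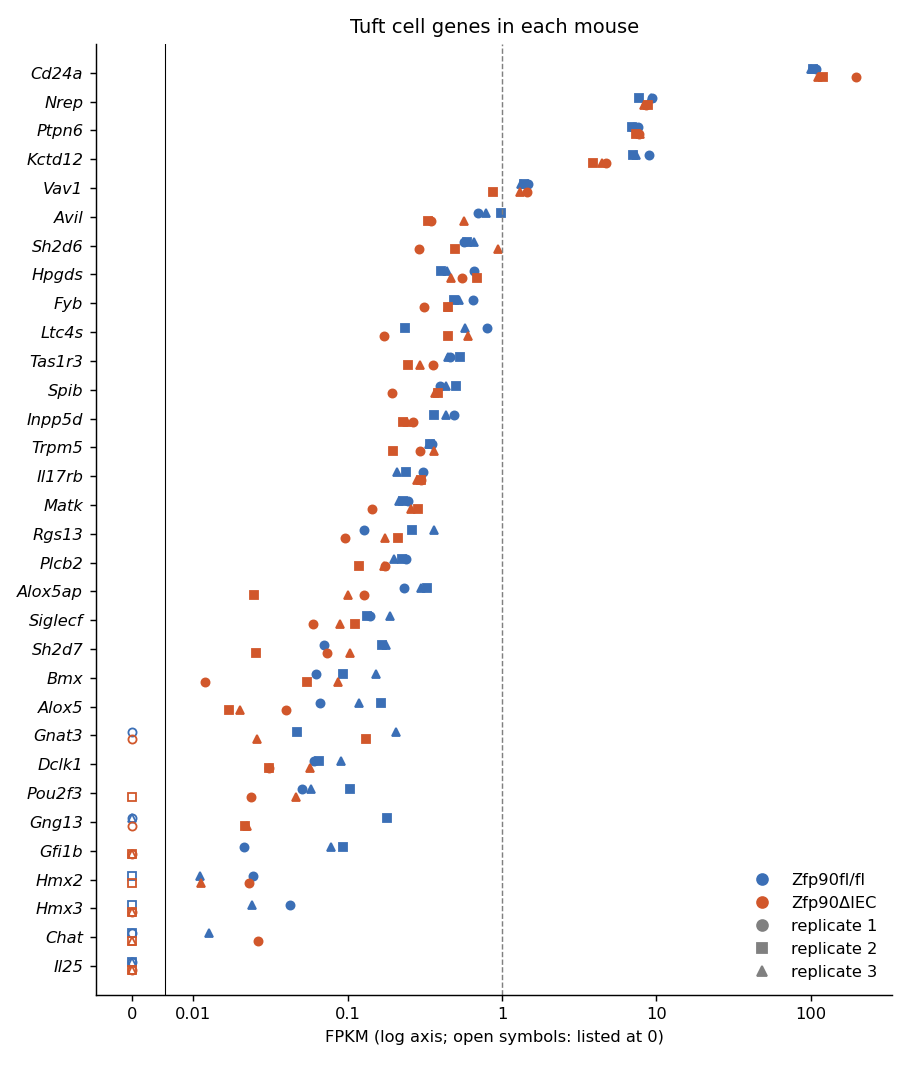
Level of each of the 32 genes in each mouse, in FPKM on a log axis, with Zfp90fl/fl in blue, Zfp90ΔIEC in orange, replicates 1, 2 and 3 as circles, squares and triangles, and open symbols at the left for values listed at 0. Only 5 genes lie right of the dashed line at 1 FPKM for most mice, and Il25 has no value above 0.

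No gene of the set passed the threshold of an adjusted p under 0.05. Of the 31 genes listed above 0, 26 had a lower mean in the Zfp90ΔIEC mice. That is 83.9%, beside 54.5% of all genes listed above 0. Of the 5 genes that reached 1 FPKM in 3 or more samples, limma called 0, and 1, Kctd12, had an unadjusted p under 0.05. Over all 11564 genes that passed this filter 0.199% were called, and 8.09% were lower with an unadjusted p under 0.05. Without the filter, 0 of the 31 genes listed above 0 were called, against 0.0539% of all genes, and 9, or 29.0%, were lower with an unadjusted p under 0.05, beside 5.82% of all genes; no second tool was run. The 3 and 3 values did not overlap and were lower in the Zfp90ΔIEC mice for 13 of these 31 genes, or 41.9%, beside 8.88% of all genes listed above 0. In the other direction this held for 1 gene, Cd24a, or 3.23%, beside 5.99% of all genes.

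Because most of the set is weakly expressed, genes below the filter with a mean of 0.02 to 1 FPKM serve as a closer background. Of the 23 tuft cell genes at this level, 12 did not overlap and were lower, or 52.2%, beside 8.69% of the 10230 genes at this level. Among these 12, 4 (Avil, Tas1r3, Dclk1 and Pou2f3) are largely confined to tuft cells within gut epithelium. The other 8 are also used by leukocytes, whose markers were lower in the same mice. The part of leukocytes in these counts was not tested. An unadjusted p under 0.05 with a lower value was found for 8 of the 23, or 34.8%, beside 6.63%. Their median log2 ratio of mean (FPKM + 0.1) was -0.43, and that of all genes at this level was -0.03. The genes were measured in the same samples and some may share a cell source, so the counts describe the set and are not a test of it. Without the 2 Zfp90ΔIEC samples whose genotype field names another gene, 19 of the 31 genes, or 61.3%, were lower in the 1 remaining Zfp90ΔIEC mouse than in all Zfp90fl/fl mice, beside 23.5% of all genes listed above 0.

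**Figure D2:**
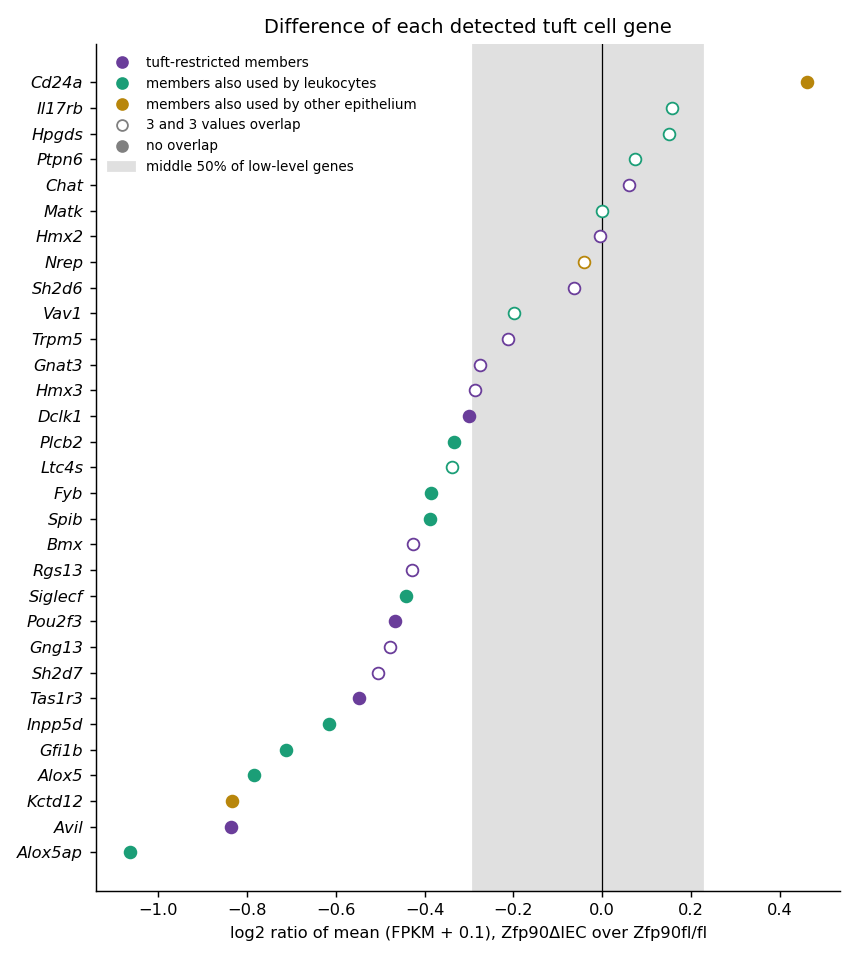
Difference between genotypes for the 31 genes listed above 0, as the log2 ratio of mean (FPKM + 0.1), Zfp90ΔIEC over Zfp90fl/fl. Filled points mark genes whose 3 and 3 values do not overlap, colours give the cells in which a gene is known to be used, and the grey band holds the middle 50% of the 10230 genes at 0.02 to 1 FPKM. The 13 filled points left of 0 run from Dclk1 to Alox5ap, and Cd24a is the only filled point on the right.

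Kctd12, an auxiliary subunit of GABA-B receptors that recurs in tuft cell signatures, showed the clearest difference. Kctd12 is also used by other epithelial cells, and the part of tuft cells in its values was not tested. It was measured at 8.92, 7.07 and 7.39 FPKM in the Zfp90fl/fl mice and at 4.69, 3.86 and 4.43 FPKM in the Zfp90ΔIEC mice. All Zfp90ΔIEC mice were lower than all Zfp90fl/fl mice, with a distance between the groups larger than the spread inside either. The Zfp90fl/fl mean was 7.79 ± 0.990 FPKM (SD, n = 3). The Zfp90ΔIEC mean was 4.33 ± 0.426 FPKM (SD, n = 3), which is 55.6% of it. On the log2(FPKM + 1) scale the difference was -0.72 (standard error 0.10, adjusted p = 0.0620 from limma), which missed the threshold. With 678.4 to 1405.0 estimated fragments in a sample, the counting error of Kctd12 is small beside the spread between mice.

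The Kctd12 start site is preceded by an octamer, the 8-base element ATGCAAAT that POU factors of the Pou2f family bind, and the sequence is shown because Kctd12 is the member with the clearest difference and Pou2f3 is itself in the set. RefSeq promoter windows of GRCm38.p6 were searched for this element on both strands in the 250 bases before each start. It was present in 1.6% of 32851 windows of all genes and in 2 of the 31 windows of the 27 tuft cell genes that have an entry, those of Kctd12 and of Hpgds. The windows are chr14:102982638-102982887 for Kctd12 and chr6:65144731-65144980 for Hpgds, both on the minus strand, and capitals mark the octamer.
Kctd12: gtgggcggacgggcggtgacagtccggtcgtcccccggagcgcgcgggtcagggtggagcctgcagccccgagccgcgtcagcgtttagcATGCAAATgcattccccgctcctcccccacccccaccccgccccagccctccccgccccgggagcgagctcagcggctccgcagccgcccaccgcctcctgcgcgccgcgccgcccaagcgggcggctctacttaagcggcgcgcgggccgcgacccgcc
Hpgds: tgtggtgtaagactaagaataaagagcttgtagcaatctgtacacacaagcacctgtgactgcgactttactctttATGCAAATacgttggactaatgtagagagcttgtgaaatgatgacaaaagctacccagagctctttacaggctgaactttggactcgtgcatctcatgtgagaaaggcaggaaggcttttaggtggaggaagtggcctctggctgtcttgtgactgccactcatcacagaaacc
The octamer begins 160 bases before the RefSeq start of Kctd12 and 174 bases before that of Hpgds. In the GENCODE annotation Hpgds begins further upstream, and its octamer lies inside the annotated gene. Hpgds, unlike Kctd12, overlapped between genotypes. A letter match does not show that a factor binds there.

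The taste-type cascade is formed here by Tas1r3 (a subunit shared by sweet and umami receptors), Gnat3 (the alpha subunit gustducin), Gng13 (a gamma subunit), Plcb2 (the phospholipase that follows) and Trpm5. All 5 had a lower mean in the Zfp90ΔIEC mice, beside 54.5% of all genes listed above 0. For 2 of them the genotypes did not overlap, beside 8.88% of all genes. Tas1r3 was at 0.463, 0.532 and 0.447 FPKM in the Zfp90fl/fl mice and at 0.355, 0.244 and 0.292 FPKM in the Zfp90ΔIEC mice. Every Zfp90ΔIEC mouse was below every Zfp90fl/fl mouse, and the mean was 61.8% of the Zfp90fl/fl mean (difference -0.19, standard error 0.0505, and in limma with no filter an adjusted p of 0.296). Tas1r3 has a single transcript, and its values stand for 25 to 52.5 estimated fragments. Plcb2 was at 0.237, 0.225 and 0.199 FPKM against 0.173, 0.119 and 0.171 FPKM, again without overlap (adjusted p = 0.447 from limma without the filter). Plcb2 is also used by leukocytes, whose markers were lower in the same mice, and their part in its values was not tested.

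Gnat3 and Gng13, although counted above among the lower means, gave no usable comparison. Gnat3 was at 0, 0.0470 and 0.205 FPKM in the Zfp90fl/fl mice and at 0, 0.131 and 0.0256 FPKM in the Zfp90ΔIEC mice, at most 8.0 estimated fragments. Gng13 was above 0.03 FPKM in Zfp90fl/fl replicate 2 only, at 0.179 FPKM, and at 0 in 3 mice. Tas1r3 lies across from Dvl1 on the opposite strand, and Dvl1 averaged 7.5 FPKM in the Zfp90fl/fl mice and 7.38 FPKM in the Zfp90ΔIEC mice, with overlap. The libraries were strand-specific according to the labels, but whether strand was used in counting is not given in the sources used here. A gene on the opposite strand overlaps 15 of the 32 genes.

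Among the regulators, all 5 had a lower mean, beside 54.5% of all genes listed above 0. The genotypes did not overlap for 3 of them, beside 8.88% of all genes. Besides Pou2f3 these were Gfi1b, a transcriptional repressor of tuft cells and of blood lineages, and Spib, an Ets factor of tuft cells, M cells and B cells. Gfi1b was at 0.0213, 0.0927 and 0.0775 FPKM in the Zfp90fl/fl mice and was listed at 0 in all 3 Zfp90ΔIEC mice. The Zfp90fl/fl values amount to between 1.0 and 4.7 estimated fragments, so no fold is given. Spib, the most abundant regulator, was at 0.395, 0.501 and 0.431 FPKM against 0.194, 0.383 and 0.365 FPKM. Its groups were separated by a small gap, with Zfp90ΔIEC replicate 1 the lowest (adjusted p = 0.593 from limma without the filter). Hmx2 and Hmx3, homeobox genes reported in tuft cells, stayed at or below 0.0420 FPKM in every mouse, which is at most 2.0 estimated fragments. Both are in the count of lower means, although the Zfp90ΔIEC mean of Hmx2 was 96.3% of the Zfp90fl/fl mean.

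Avil, which encodes the actin-binding protein advillin of the tuft cell's apical bundle, was the most abundant of the tuft-restricted genes. It was measured at 0.697, 0.978 and 0.781 FPKM in the Zfp90fl/fl mice and at 0.349, 0.330 and 0.566 FPKM in the Zfp90ΔIEC mice. Zfp90ΔIEC replicates 1 and 2 were far below the Zfp90fl/fl range, and replicate 3 was closer to it. The Zfp90fl/fl mean was 0.819 ± 0.144 FPKM (SD, n = 3). The Zfp90ΔIEC mean was 0.415 ± 0.131 FPKM (SD, n = 3), or 50.6% of it. The difference on the log2(FPKM + 1) scale was -0.36 with a standard error of 0.0967, and limma with no filter gave an adjusted p of 0.296. Tsfm, which overlaps Avil on the opposite strand, was at 5.21 FPKM and 5.37 FPKM on average and overlapped between genotypes.

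Cd24a, a surface protein of many epithelial progenitors and secretory cells as well as tuft cells, was the only member with higher values and no overlap. It was at 108, 103 and 100.01 FPKM in the Zfp90fl/fl mice and at 197, 120 and 112 FPKM in the Zfp90ΔIEC mice. The groups did not overlap, but only Zfp90ΔIEC replicate 1 stood well above the others. The difference was 0.41 on the log2(FPKM + 1) scale (standard error 0.202, adjusted p = 0.408 from limma). Without Zfp90ΔIEC replicates 2 and 3, whose genotype field names another gene, the difference was 0.92 with an adjusted p of 0.0344 from limma, resting on that 1 mouse. The same mouse also had the highest sum of goblet cell markers, 2645 FPKM against 1898 and 1975 FPKM in the other Zfp90ΔIEC mice and 1450 to 1796 FPKM in the Zfp90fl/fl mice; the part of these cells in the Cd24a value was not tested. Siglecf, a sialic acid receptor of tuft cells and eosinophils, was at 0.139, 0.132 and 0.189 FPKM against 0.0591, 0.111 and 0.0893 FPKM without overlap (adjusted p = 0.407 without the filter). The eosinophil markers Prg2, Epx, Ccr3 and Il5ra together reached at most 0.0928 FPKM in any mouse.

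**Figure D3:**
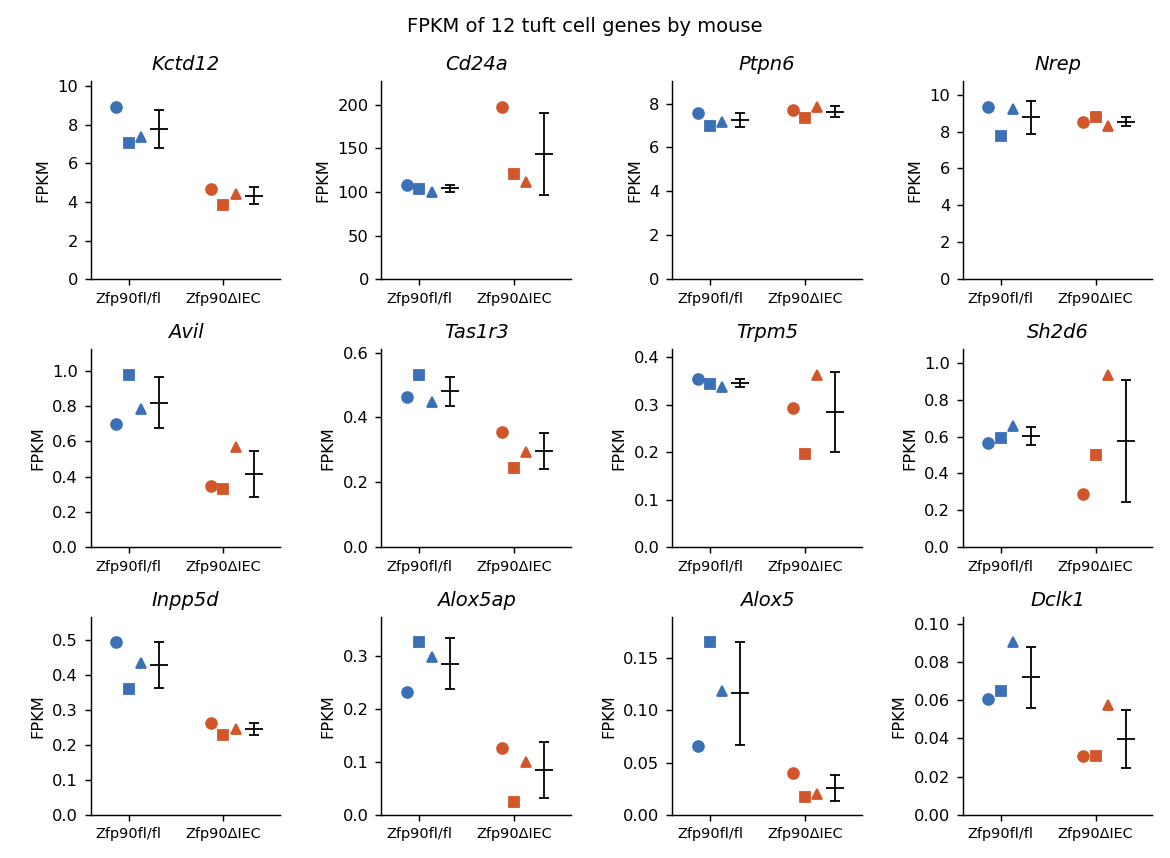
FPKM of 12 tuft cell genes in each mouse, with replicates 1, 2 and 3 as circles, squares and triangles; the bars beside the points give the mean and SD of 3 mice, and each vertical axis starts at 0. Kctd12, Avil, Tas1r3, Inpp5d, Alox5ap, Alox5 and Dclk1 are lower in every Zfp90ΔIEC mouse, Ptpn6, Nrep, Trpm5 and Sh2d6 overlap, and Cd24a is set apart mainly by Zfp90ΔIEC replicate 1.

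The enzymes of lipid mediator synthesis divided into a pair without and a pair with overlap. Alox5, the 5-lipoxygenase that opens leukotriene synthesis, was at 0.0659, 0.165 and 0.118 FPKM in the Zfp90fl/fl mice and at 0.0396, 0.0170 and 0.0201 FPKM in the Zfp90ΔIEC mice. Alox5ap, the protein that presents arachidonic acid to this enzyme, was at 0.231, 0.325 and 0.298 FPKM against 0.127, 0.0246 and 0.10 FPKM. The Zfp90ΔIEC mice were lower throughout, at 22.0% of the Zfp90fl/fl mean for Alox5 and 29.5% for Alox5ap, the lowest shares of the set among genes above 0 in all mice. The adjusted p was 0.324 and 0.192 (limma without the filter), and no sample held more than 13 estimated fragments of either gene.

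Ltc4s, the leukotriene C4 synthase, was at 0.801, 0.237 and 0.577 FPKM against 0.172, 0.444 and 0.599 FPKM. Hpgds, the prostaglandin D synthase, was at 0.656, 0.402 and 0.439 FPKM against 0.547, 0.684 and 0.464 FPKM. Both overlapped, and for Hpgds the Zfp90ΔIEC mean was the higher one. On the log2(FPKM + 1) scale the difference was -0.13 for Ltc4s (standard error 0.177) and 0.06 for Hpgds (standard error 0.0911). Mast cells use all 4 enzymes. The mast cell proteases Mcpt1 and Mcpt2, which did pass the threshold in limma (adjusted p = 0.00271 each), averaged 11.3 and 5.32 FPKM in the Zfp90fl/fl mice and 0.787 and 0.288 FPKM in the Zfp90ΔIEC mice. Summed over 9 mast cell markers, FPKM were 18.1 to 26.2 and 5.57 to 10.05, without overlap. Kit, which is also expressed in secretory epithelial cells, made up most of the latter, at 8.35, 4.16 and 4.13 FPKM after 5.07, 5.05 and 4.42 FPKM in the Zfp90fl/fl mice. Cpa3, Fcer1a, Ms4a2, Mcpt4 and Tpsb2 were at or below 0.256 FPKM in every mouse. Cma1, on the same list, was at 1.01, 0.762 and 1.01 FPKM against 0.589, 0.583 and 0.902 FPKM, with overlap. Of the 9 markers, 4 were lower without overlap. Neutrophil markers, whose cells also use 5-lipoxygenase, summed to 1.23 to 2.47 FPKM in the Zfp90fl/fl mice and to at most 0.0180 FPKM in the Zfp90ΔIEC mice. Of these 5 markers 4 did not overlap, S100a8 and S100a9 were listed at 0 in every Zfp90ΔIEC mouse, and Csf3r had an adjusted p of 0.0177 (limma without the filter). B and plasma cell markers summed to 0.673 to 0.989 FPKM against 0.123 to 0.263 FPKM, and macrophage markers to 4.03 to 5.19 FPKM against 1.55 to 2.76 FPKM. The part of mast cells, neutrophils and other leukocytes in the values of Alox5 and Alox5ap was not tested.

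Of the 9 adaptors, kinases and other signalling genes, many of them shared with leukocytes, 8 had a lower mean, beside 54.5% of all genes listed above 0. For 2 the genotypes did not overlap, beside 8.88% of all genes. Matk is counted among the 8, although its Zfp90ΔIEC mean was 99.9% of the Zfp90fl/fl mean. The most abundant, Ptpn6, was not among the 8. Inpp5d, the inositol phosphatase SHIP-1, was at 0.492, 0.360 and 0.433 FPKM in the Zfp90fl/fl mice and at 0.263, 0.228 and 0.244 FPKM in the Zfp90ΔIEC mice. The 3 Zfp90ΔIEC values lay close together and below every Zfp90fl/fl value, at 57.2% of the Zfp90fl/fl mean (adjusted p = 0.253 from limma without the filter). Fyb, an adaptor of T cells and myeloid cells, was at 0.649, 0.490 and 0.526 FPKM against 0.314, 0.444 and 0.447 FPKM, also without overlap (adjusted p = 0.535). Both genes are expressed in leukocytes, whose marker sum was lower in the same mice, and the part of leukocytes in these values was not tested.

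Ptpn6, the phosphatase SHP-1, was at 7.58, 6.96 and 7.18 FPKM against 7.69, 7.35 and 7.85 FPKM. Vav1, a guanine nucleotide exchange factor, was at 1.47, 1.38 and 1.33 FPKM against 1.44, 0.870 and 1.30 FPKM. These genes overlapped between genotypes, with differences on the log2(FPKM + 1) scale of 0.07 (standard error 0.0583, adjusted p = 0.649 from limma) and -0.13 (standard error 0.111, adjusted p = 0.644). Ptprc, the common leukocyte antigen, averaged 0.721 FPKM in the Zfp90fl/fl mice and 0.371 FPKM in the Zfp90ΔIEC mice, below Ptpn6 in every mouse. Matk, a kinase related to Csk, averaged 0.230 FPKM in both genotypes.

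Among the signalling genes that are more particular to tuft cells, Sh2d6, an SH2 adaptor, was at 0.563, 0.594 and 0.658 FPKM in the Zfp90fl/fl mice and at 0.290, 0.498 and 0.936 FPKM in the Zfp90ΔIEC mice. Zfp90ΔIEC replicate 1 was the lowest and replicate 3 the highest of all 6, so the spread within that genotype covered the whole Zfp90fl/fl range. Sh2d7, Bmx (a Tec family kinase) and Rgs13 (a regulator of G protein signalling) had Zfp90ΔIEC means of 49.0%, 49.6% and 64.0% of the Zfp90fl/fl means. For these 3 the genotypes overlapped, with at most 16.1 estimated fragments of any of them in a sample, and their adjusted p-values were 0.585, 0.649 and 0.749 (limma without the filter). Nrep, a small neuronal regeneration protein, was at 9.34, 7.76 and 9.24 FPKM against 8.51, 8.77 and 8.30 FPKM, with overlap and a difference of -0.03 on the log2(FPKM + 1) scale (standard error 0.0784, adjusted p = 0.877 from limma).

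On the output side, Il17rb, the receptor subunit for IL-25, was at 0.309, 0.240 and 0.210 FPKM against 0.300, 0.297 and 0.283 FPKM. The groups overlapped and the Zfp90ΔIEC mean was 116% of the Zfp90fl/fl mean (adjusted p = 0.751 from limma without the filter). Chat, the enzyme of acetylcholine synthesis, was above 0 only in Zfp90fl/fl replicate 3 and Zfp90ΔIEC replicate 1, at most 2.0 estimated fragments.

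Summed over the 15 genes largely restricted to tuft cells within gut epithelium, expression was 2.51, 3.36 and 3.32 FPKM in the Zfp90fl/fl mice and 1.57, 1.74 and 2.68 FPKM in the Zfp90ΔIEC mice. The sums overlapped, since Zfp90ΔIEC replicate 3 lay above Zfp90fl/fl replicate 1. The Zfp90fl/fl mean was 3.06 ± 0.477 FPKM (SD, n = 3). The Zfp90ΔIEC mean was 2.00 ± 0.599 FPKM (SD, n = 3), which gives a log2 ratio of -0.62, and the ratio ranged from -0.89 to -0.47 with each mouse left out in turn and was -0.96 without the 2 Zfp90ΔIEC samples whose genotype field names another gene. Of the 14 genes above 0, 13 had a lower mean in the Zfp90ΔIEC mice and 4 did not overlap: Avil, Tas1r3, Dclk1 and Pou2f3. Of the 14 genes also used by leukocytes, 11 had a lower mean and 8 did not overlap. Over all genes listed above 0, 54.5% had a lower mean and 8.88% were lower without overlap. Zfp90ΔIEC replicate 2 had the lowest value of the 6 mice, ties at 0 included, in 9 of the 14 tuft-restricted genes above 0, and Zfp90fl/fl replicate 3 had the highest in 5.

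The sums of enteroendocrine, goblet and colonocyte markers were higher in the Zfp90ΔIEC mice, while no single marker of these lists passed the threshold in limma. Enteroendocrine markers (Chga, Chgb, Neurod1, Pyy, Gcg and Tph1) summed to 91.7 to 103 FPKM in the Zfp90fl/fl mice and to 109 to 134 FPKM in the Zfp90ΔIEC mice, without overlap. Of these 6 markers, 3 were higher without overlap and Pyy had a mean of 93.1% of the Zfp90fl/fl mean. All 6 goblet cell markers had a higher mean, 2 of them without overlap. The 5 colonocyte markers, led by Car1, summed to 4527 to 6187 FPKM against 6914 to 10784 FPKM. The difference between these lists and the tuft cell genes was not tested.

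**Figure D4:**
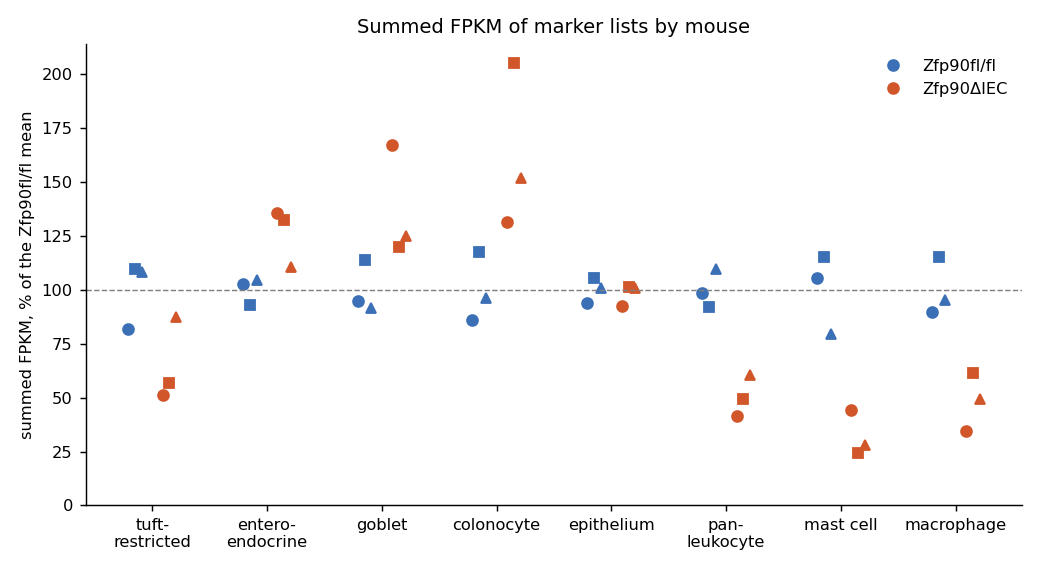
Summed FPKM of marker lists in each mouse, as a percentage of the Zfp90fl/fl mean of the same list, with replicates 1, 2 and 3 as circles, squares and triangles. The tuft-restricted sum is at 51.28%, 56.87% and 87.59% in the Zfp90ΔIEC mice, the enteroendocrine, goblet and colonocyte sums are above the Zfp90fl/fl mice, and the pan-leukocyte, mast cell and macrophage sums are below them.

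A wider tuft cell list of 30 further genes, of which 28 were matched and 10 passed the filter, gave no call at an adjusted p under 0.05. The 3 genes with an unadjusted p under 0.05 in the filtered test were all higher in the Zfp90ΔIEC mice and are also used by other epithelial cells. Krt18, a keratin of simple epithelia, averaged 302 and 348 FPKM (adjusted p = 0.240 from limma). Plk2, a polo-like kinase, averaged 11.8 and 16.6 FPKM (adjusted p = 0.318), and Itpr2, an inositol trisphosphate receptor, 2.62 and 3.22 FPKM (adjusted p = 0.331). Of the 25 genes of the list above 0, 15 had a lower mean, beside 54.5% of all genes listed above 0. The genotypes did not overlap in 6 that were lower, all below the filter (Ptgs1, Nebl, Cd300lf, Pik3r5, Pik3cg and 1810046K07Rik), beside 8.88% of all genes. They did not overlap in 2 that were higher (Krt18 and Svil), beside 5.99%. Leukocyte markers were lower in the same mice, and the part of leukocytes in the 6 lower genes was not tested. 1810046K07Rik, chosen after its values were seen, encodes a coactivator of Pou2f3 and was at 0.108, 0.0989 and 0.0987 FPKM in the Zfp90fl/fl mice and at 0.0510, 0.0363 and 0.0244 FPKM in the Zfp90ΔIEC mice (adjusted p = 0.173 without the filter).

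Of 17 genes of the type 2 circuit around tuft cells, 6 passed the filter and 0 were called in limma. Of these 6, Il4ra and Retnlb were lower with an unadjusted p under 0.05, beside 8.09% of all genes passing the filter. Of the 14 genes above 0, 9 had a lower mean, beside 54.5% of all genes. The genotypes did not overlap in 4 that were lower (Il4ra, Gata3, Cysltr1 and Cysltr2), beside 8.88%. Below the filter, Cysltr1 and Cysltr2 had an unadjusted p under 0.05 in limma (adjusted p = 0.438 and 0.314). Their means were 0.0239 and 0.151 FPKM in the Zfp90fl/fl mice and 0.00232 and 0.0480 FPKM in the Zfp90ΔIEC mice. Il4ra, the receptor chain through which IL-4 and IL-13 act on the epithelium, was at 5.76, 7.19 and 7.90 FPKM in the Zfp90fl/fl mice and at 3.52, 4.36 and 4.03 FPKM in the Zfp90ΔIEC mice, without overlap (difference -0.67, standard error 0.116, adjusted p = 0.0834 from limma). Retnlb, a goblet cell lectin known as a type 2 response gene, was at 53.5, 99.0 and 82.0 FPKM against 27.8, 21.5 and 59.5 FPKM, and Zfp90ΔIEC replicate 3 overlapped with Zfp90fl/fl replicate 1 (adjusted p = 0.243). The cytokine genes Il13 and Il9 were listed at 0 in every mouse, and Il4 and Il5 did not exceed 0.183 FPKM.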

How the data were processed

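RNA-seq of colon epithelium was analysed in 6 samples, grouped by the genotype that their titles give. The authors deposited 1 FPKM per gene and sample. The study's methods name TopHat, Cuffdiff and a human genome, whereas the submitters' processing notes name STAR 2.5, Cuffnorm, DESeq 1.22.1 and mm9; the identifiers are mouse Ensembl genes, and the unit follows from the methods and the values. Symbols came from GENCODE M21 (GRCm38) for 52403 of 52550 genes. Coordinates of genes are not printed because the builds differ; promoter windows are RefSeq's on GRCm38.p6.

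Genes that reached 1 FPKM in 3 or more samples were compared on log2(FPKM + 1) with limma (version 3.58.1, R 4.3.3, with an intensity trend) and Benjamini-Hochberg adjustment over all genes tested. This scale understates the change of low genes. Genes below the filter take their statistics from the same fit over the 27805 genes listed above 0. The fit was tested on simulated data for genes passing the filter only, which does not cover the fit without a filter. Figures were made with Python 3.11.15 and matplotlib 3.10.9.

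Depth was estimated from genes with a single transcript, whose low values were within 0.1 of a whole fragment in 55.9% to 60.3% of cases; fragments per gene assume the longest coding transcript and are approximate. The study describes 3 mice per group for these libraries, and samples were taken as separate mice. The members and lists were chosen with earlier results of these data known. All members are named, with values in every sample for those above the filter and for Dclk1, Trpm5, Pou2f3 and Il25. Sample values of other members, and genes of other lists beyond those with an unadjusted p under 0.05, were chosen after they were seen. The octamer was searched after the expression values were seen.

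Alternatives were a pseudocount of 0.1, a filter at 0.1 FPKM, no filter, quantile normalization, median ratio scaling, a replicate block and each sample left out. For the tuft-restricted sum, its most abundant gene was also left out. Added after seeing the data were the background at 0.02 to 1 FPKM, overlap with each sample left out, and fits without the 2 samples whose genotype label names another gene.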

Additional observations from a re-analysis of the deposited data

How the results depend on the processing

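The number of genes past the threshold was 23 and changed to 13 with a pseudocount of 0.1, 15 without a filter, 42 without the 2 Zfp90ΔIEC samples whose genotype label names another gene, and 47 with the replicate block; it ran from 10 to 21 with each mouse left out, the lowest being without Zfp90fl/fl replicate 2. The number of tuft cell genes past the threshold was 0, and 0 with each mouse left out. It became 1 with the replicate block (Kctd12, adjusted p = 0.0403 from limma, with 0.0403 to 0.191 over all alternatives) and 1 without the 2 samples named above (Cd24a, difference 0.92, adjusted p = 0.0344 from limma, resting on Zfp90ΔIEC replicate 1 alone, which is assumed to vary like the other group). Same-numbered samples deviated together with correlations across genes of 0.194, 0.11 and 0.0782, so the numbers were not taken to pair the mice. The count of 13 genes lower without overlap was 13 with median ratio scaling and 10 with quantile normalization. Leaving out mice cannot lower this count. The 13 to 16 with each mouse left out, and 19 without those 2 samples, therefore do not show that it holds. Without those 2 samples the share of all genes listed above 0 rose too, from 8.88% to 23.5%. The log2 ratio of the tuft-restricted sum was -0.96 without those 2 samples. With all 6 mice it was -0.50 without Avil, the most abundant gene of the sum, and the sums still overlapped. Without Avil and Sh2d6, which was not among the alternatives listed above, the ratio was -0.70 and the sums did not overlap.

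Of 367 pairs of gene and alternative, 350 kept direction and side of the threshold and 15 turned direction, in 8 genes. With each mouse left out, the log2 difference ran from -0.21 to 0.0863 for Sh2d6, -0.0964 to 0.0381 for Gnat3, -0.0978 to 0.0208 for Gng13, -0.0060 to 0.013 for Chat, -0.0090 to 0.0083 for Hmx2, -0.11 to 0.0082 for Nrep and -0.036 to 0.049 for Matk. Quantile normalization gave 0.00049 for Hmx2 and 0.016 for Matk, and median ratio scaling gave 0.0023 for Matk. Without the 2 samples named above, Vav1 was at 0.028 and Hmx2 at 0.016. The cause of these turns was not tested. Depth limits the set: Dclk1 rests on at most 20.6 estimated fragments in a sample and Pou2f3 on 7.6.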
